A study of Mus musculus with 4 samples.

Results

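The globin genes Hba-x, Hba-a1, Hba-a2, Hbb-y, Hbb-bh1, Hbb-bs and Hbb-bt are the protein chains of mouse haemoglobin, and they are the 7 of 32285 listed genes described here. They were chosen by name, with earlier results of these data known. Their unique molecular identifiers (UMIs, which count captured mRNA molecules) were summed in erythroid-like cells, in macrophage-like cells and in barcodes with under 1300 UMIs of each library, and the embryonic genes were set against the adult genes. The data are single-cell transcriptomes of the aorta-gonad-mesonephros region (AGM, where blood stem cells first arise) of C57BL/6J mouse embryos at E11.5. All cells were sorted as CD31+, CD31 being the endothelial and blood cell surface protein encoded by Pecam1. They were then split by the dye TMRM, which collects in mitochondria according to membrane potential, into fractions of low (MMPlow) and of high signal (MMPhigh). Each fraction has 2 libraries, from 10x Genomics 3′ v3 chemistry, and the study asked which transcriptional differences go with mitochondrial activity. No allele, transgene or drug is named in the labels. The labels do not say whether the 2 libraries of a fraction came from separate embryos, so p-values measure only the spread between these libraries, which may be technical.

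Haemoglobin pairs alpha-like with beta-like chains, and the genes of each kind lie together in a cluster that is switched during development. Primitive red cells, which come from the yolk sac and circulate as large cells in the embryo, use the embryonic genes Hba-x (zeta), Hbb-bh1 and Hbb-y (epsilon-y) together with adult alpha chains. Definitive red cells, which mature first in the fetal liver, use the adult alpha genes Hba-a1 and Hba-a2 and the adult beta genes Hbb-bs and Hbb-bt. Macrophages do not make haemoglobin, but they engulf red cells and the nuclei that red cells expel.

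On mm10, in the GENCODE vM21 annotation, the alpha-like genes lie on the forward strand of chromosome 11. Hba-x spans chr11:32276400-32278116, Hba-a1 spans chr11:32283511-32284465 and Hba-a2 spans chr11:32296489-32297298. The beta-like genes lie on the reverse strand of chromosome 7. Hbb-y spans chr7:103851749-103853216, Hbb-bh1 spans chr7:103841637-103843164, Hbb-bs spans chr7:103826534-103828096 and Hbb-bt spans chr7:103812524-103813996. The adult pairs are near-copies of each other at the end that a 3′ library reads. Of the 90-base windows in the last 500 bases of the transcript, 78.1% of those of Hba-a1 occur in Hba-a2 and 61.3% of those of Hbb-bs occur in Hbb-bt, and no window of the embryonic genes occurs in another member. The split of reads within Hba-a1 and Hba-a2, and within Hbb-bs and Hbb-bt, is therefore uncertain. How the authors' counting treated reads that match both copies is not given in the sources used here. If such reads were dropped, adult levels are too low and embryonic to adult ratios too high in every library, which was not tested.

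The promoters are shown so that the embryonic genes can be compared with the adult genes. Each line gives the 120 bases before the start site on the gene's own strand, 5′ to 3′, from the RefSeq annotation of GRCm38.p6. RefSeq places the starts of Hba-x, Hba-a1 and Hbb-bs further inside the gene than GENCODE does, so these 3 windows lie within the spans given above, and those of Hbb-y and Hbb-bt overlap them in part. Capitals mark each match, on either strand, to 4 motifs of erythroid promoters: CACCC (bound by Krüppel-like factors such as Klf1), CCAAT (the CCAAT box), GATAA (the core of a GATA site) and TATAA.
Hba-x at chr11:32276480-32276599: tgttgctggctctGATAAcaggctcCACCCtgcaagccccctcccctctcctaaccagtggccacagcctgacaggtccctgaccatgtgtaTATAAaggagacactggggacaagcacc
Hba-a1 at chr11:32283552-32283671: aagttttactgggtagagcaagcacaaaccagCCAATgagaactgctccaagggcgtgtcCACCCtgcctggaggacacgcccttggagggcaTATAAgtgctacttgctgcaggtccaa
Hbb-y at chr7:103853208-103853327: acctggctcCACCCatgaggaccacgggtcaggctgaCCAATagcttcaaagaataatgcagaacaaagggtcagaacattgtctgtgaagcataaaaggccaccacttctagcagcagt
Hbb-bs at chr7:103827929-103828048: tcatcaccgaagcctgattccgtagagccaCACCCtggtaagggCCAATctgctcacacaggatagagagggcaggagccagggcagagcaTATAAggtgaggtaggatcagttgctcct
Hbb-bt at chr7:103813924-103814043: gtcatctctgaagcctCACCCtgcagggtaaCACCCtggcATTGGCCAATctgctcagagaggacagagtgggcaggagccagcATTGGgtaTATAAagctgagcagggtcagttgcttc
Of the 7 members, 6 matched the promoter table by symbol. The promoter of Hba-a2 shares an unbroken run of 297 of the table's 300 bases with that of Hba-a1 and is not printed, and Hbb-bh1 has no entry. CACCC occurs in all 6 windows, CCAAT in all but that of Hba-x, TATAA in all but that of Hbb-y, and GATAA in that of Hba-x alone. Among 32851 promoter windows of the same length, 31.7% hold CACCC, 21.3% CCAAT, 11.8% TATAA and 10.5% GATAA. A match is only a run of letters. The longest run shared by Hbb-bs and Hbb-bt is 14 bases, and by any other pair besides the adult alpha genes at most 12.

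Values below are given in the order MMPlow 1, MMPlow 2, MMPhigh 1 and MMPhigh 2 where 4 are listed. The libraries held 59928, 23715, 13939 and 4288 barcodes, with 51800709 to 120168395 UMIs each and median depths of 1274, 3283, 1362 and 19707.5 UMIs per barcode. After filtering, 16698, 18583, 4403 and 3418 cells were retained, at median depths of 3145, 3651, 3685 and 23668.5 UMIs. Pairs of libraries shared between 14 and 369 barcode sequences. The sorted CD31+ phenotype was not matched by the MMPhigh libraries: Pecam1 lay at 275, 261, 24.9 and 21.98 counts per 1000000 UMIs (CPM) in the sums of retained cells, and endothelial-like cells made up 43.5%, 44.7%, 0.318% and 0.380% of them. MMPhigh 2 stood apart by its depth, and it, like MMPhigh 1, changed several results below when left out.

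Few barcodes held most of the globin mRNA. Over all barcodes the 7 genes had 127604, 122766, 90275 and 70505 UMIs, which is 0.106%, 0.120%, 0.174% and 0.0625% of all UMIs. In each library, 50% of these globin UMIs came from 18, 17, 9 and 5 barcodes. Barcodes with at least 5% of their UMIs from the 7 genes, called globin-rich from here on, numbered 70, 96, 81 and 23, and they held 68.1%, 79.6%, 78.5% and 56.8% of the globin UMIs. This limit uses the members' own values and was set after they had been seen, so values of the globin-rich barcodes are a description only. Just outside the limit, at 4% to under 5%, lay 11, 6, 5 and 0 barcodes, and just inside it, at 5% to under 6%, lay 4, 14, 2 and 0. The highest globin share of a single barcode was 59.3%, 56.1%, 67.3% and 61.6%.

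The globin-rich barcodes carried mainly embryonic globin in all 4 libraries. Hbb-y alone made up 44.6%, 45.8%, 49.8% and 50.9% of their globin UMIs, and Hba-x made up 30.2%, 31.7%, 27.98% and 29.99%. Hbb-bh1 followed at 7.89%, 9.56%, 6.38% and 7.41%, and the adult alpha gene Hba-a1 at 8.74%, 6.43%, 8.25% and 7.10%. The adult beta genes were the lowest members, with Hbb-bs at 1.25%, 0.934%, 0.531% and 0.145%. Embryonic over adult UMIs gave ratios of 4.78, 6.74, 5.32 and 7.55. The ratio was 13.6, 19.1, 16.8 and 48.7 within the beta-like genes and 2.25, 3.16, 2.24 and 2.86 within the alpha-like genes, so it was in each library lower for the alpha-like genes. Of these barcodes, 60, 92, 79 and 23 had at least 90% of their beta-like UMIs from Hbb-y and Hbb-bh1. Under 10% was found in 3, 2, 0 and 0, which carried adult globin instead. Erythroid genes outside the globin family were measured in the same barcodes. Alas2, the first enzyme of haem synthesis in red cells, lay at 460, 548, 431 and 695 per 1000000 non-globin UMIs, and Slc4a1, the anion exchanger of the red cell membrane, at 628, 596, 570 and 908. In the whole erythroid-like class Alas2 lay at 20.2, 15.4, 9.42 and 6.18. The regulators Gata1 and Klf1 lay closer to their levels in that class, and Myb, a factor of progenitors, lay below it. Gata1 lay at 100.9, 115, 97.4 and 134 in the globin-rich barcodes against 114, 132, 105 and 131 in the class, Klf1 at 67.3, 124, 167 and 157 against 88.2, 117, 170 and 188, and Myb at 50.5, 35.3, 13.9 and 0 against 239, 250, 187 and 210. The 14 genes of the erythroid marker list summed to 5539, 5777, 5398 and 7496 per 1000000 non-globin UMIs in the globin-rich barcodes, and all 14 were detected in each library. Markers of other cell types were present beside them. The endothelial list summed to 1194, 1153, 41.7 and 11.2 and the neural list to 146, 70.7, 598 and 3059, and their part in these barcodes was not tested. Only 31, 37, 22 and 5 of the globin-rich barcodes passed the cell filter, and 23, 27, 22 and 4 of these were in the erythroid-like class.

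**Figure D1:**
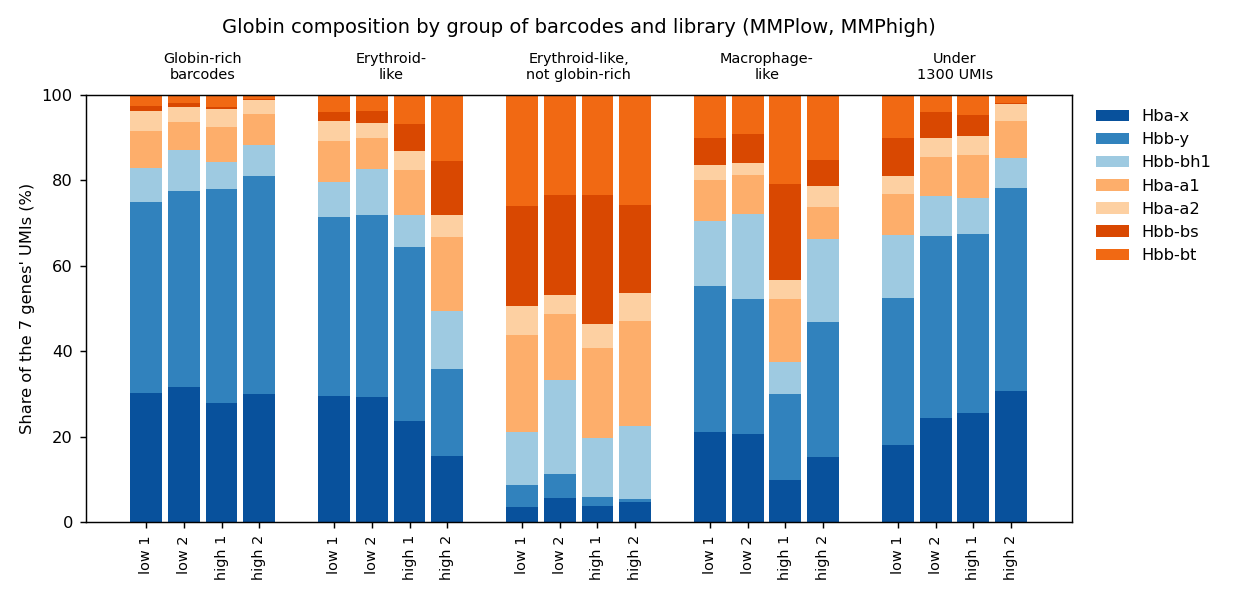
Share of each of the 7 globin genes (% of their summed UMIs, stacked bars; blue shades embryonic, orange shades adult) in 5 groups of barcodes, with 1 bar per library. Blue dominates the globin-rich barcodes, where Hbb-y and Hba-x lead, and orange dominates the erythroid-like cells that are not globin-rich.

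Erythroid-like cells numbered 1327, 1281, 596 and 372, or 7.95%, 6.89%, 13.5% and 10.9% of the retained cells, and were named from markers without globin genes. The class joins 3 clusters. Cluster 3 was led by Muc13, Myb and Itga4, genes of early progenitors, cluster 25 by Slc25a21, Mt2, Cpox, Ermap and Klf1, genes of haem synthesis and erythroid maturation among them, and cluster 29 by Cited4, Blvrb and Klf1. In cluster 3, 8 of 14 erythroid markers lay at a log2 fold of 1 or more over all other cells, and 0 were among its 10 leading genes. The count was 11 in cluster 25 and 7 in cluster 29. Different clusters held most of the class in different libraries: cluster 3 held 82.7% and 71.7% of it in MMPlow 1 and 2, cluster 29 held 75.7% in MMPhigh 1, and cluster 25 held 71.2% in MMPhigh 2. Median depth in the class was 3060, 4539, 3652 and 55569 UMIs.

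Globin was higher in erythroid-like cells than in any other named class of the same library. The 7 genes together lay at 11569, 7693, 8366 and 1951 CPM. The embryonic beta gene Hbb-y lay at 4851, 3271, 3398 and 397 CPM. The embryonic alpha gene Hba-x lay at 3415, 2249, 1982 and 304 CPM. MMPhigh 2 was thus lowest for both, and MMPhigh 1 lay within or near the MMPlow values, so the fractions overlapped for Hbb-y and not for Hba-x. Hbb-bh1, the other embryonic beta gene, lay at 943, 834, 631 and 263 CPM, lower in both MMPhigh libraries. The adult alpha genes overlapped between fractions, with Hba-a1 at 1103, 551, 886 and 337 CPM and Hba-a2 at 541, 281, 372 and 102 CPM. The adult beta genes had another order: Hbb-bs lay at 241, 211, 514 and 243 CPM and Hbb-bt at 476, 296, 584 and 305 CPM. A UMI of a 3′ library counts a molecule whatever its length, so these levels were not divided by gene length.

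Between the fractions, 0 of the 7 genes passed the test in erythroid-like cells, where 27.7% of all 12900 genes tested did. A gene counts as called when the edgeR quasi-likelihood test, adjusted over all genes, gives a p under 0.05. Without adjustment 1 gene had a p under 0.05, and DESeq2 called 0. That gene was Hbb-bs, whose fold of MMPhigh over MMPlow was 1.07 on the log2 scale (SE 0.37, edgeR adjusted p 0.0804). The other log2 folds were -0.97 for Hba-x (SE 1.19), -0.76 for Hbb-y (SE 1.32), -0.67 for Hbb-bh1 (SE 0.42), -0.45 for Hba-a2 (SE 0.91), -0.09 for Hba-a1 (SE 0.65) and 0.54 for Hbb-bt (SE 0.35). The median over the 7 was -0.45, against -0.01 over all genes tested. Without MMPhigh 1, 4 members were called, all lower, where 20.8% of genes were called. Without MMPhigh 2, 2 were called higher, where 9.03% of genes were. In cluster 25 alone, the cluster with the highest marker folds, 0 of 7 were called, where 11.6% of genes were, also 0 at an unadjusted p under 0.05, and the median over the 7 was -1.58.

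The embryonic to adult ratio of erythroid-like cells was lower in both MMPhigh libraries at the cell filter used here. It was 3.90 (95% exact interval 3.83 to 3.97), 4.74 (4.66 to 4.84), 2.55 (2.51 to 2.60) and 0.976 (0.957 to 0.995). These intervals cover counting error only. On the log2 scale the means were 2.105 ± 0.20 in MMPlow and 0.66 ± 0.98 in MMPhigh (SD, n = 2 each). The difference of -1.45 had an exact two-sided permutation p of 0.33, the smallest that 2 libraries against 2 allow, and 0.667 after Benjamini-Hochberg adjustment over the 6 ratio tests. Within the beta-like genes the ratios were 8.08, 8.09, 3.67 and 1.204, and within the alpha-like genes 2.08, 2.70, 1.58 and 0.691. With the cell filter raised to 5000 UMIs and 2000 genes, the ratio was 2.19, 2.29, 2.35 and 0.893, so MMPhigh 1 then lay above both MMPlow libraries. Globin-rich barcodes supplied 93.2%, 90.8%, 80.9% and 40.0% of the class's globin UMIs, in the same order of libraries. In MMPhigh 1, 50% of the UMIs came from 2 cells.

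Summed over the class, the erythroid-like cells that were not globin-rich carried mainly adult globin in every library. The limit removes cells by the values described here and was set after the data had been seen, so these levels are a description with no test. The ratio was 0.267, 0.4999, 0.244 and 0.289, and the 7 genes together lay at 806, 719, 1626 and 1172 CPM. Hba-a1 lay at 183, 111, 344 and 287 CPM, Hbb-bt at 211, 168, 381 and 302 CPM and Hbb-bs at 188, 168, 491 and 243 CPM, with both MMPhigh libraries above both MMPlow libraries for each. Of the embryonic genes, Hbb-bh1 was the highest, at 100, 159, 225 and 200 CPM, and Hba-x lay at 28.2, 41.3, 60.2 and 54.9 CPM. Hbb-y, the leading gene of the globin-rich barcodes, lay at 41.8, 39.8, 34.1 and 8.38 CPM.

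The make-up of the class also differed, with cluster 3 holding most of it in MMPlow only, and its part in these levels was not tested. Among the cells of cluster 25 that were not globin-rich, Hbb-bh1 lay at 148, 140, 304 and 220 CPM, Hba-a1 at 423, 197, 429 and 350 CPM and Hbb-bs at 411, 260, 650 and 278 CPM. There Hba-a1 and Hbb-bs overlapped between fractions, while Hbb-bh1 was higher in both MMPhigh libraries. Without globin-rich barcodes, the embryonic to adult ratio ranged over libraries from 0.128 to 0.280 in cluster 25 and from 0.0882 to 0.455 in cluster 29. In cluster 3 it ranged from 0.341 to 1.53, so that cluster was not mainly adult in every library.

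**Figure D2:**
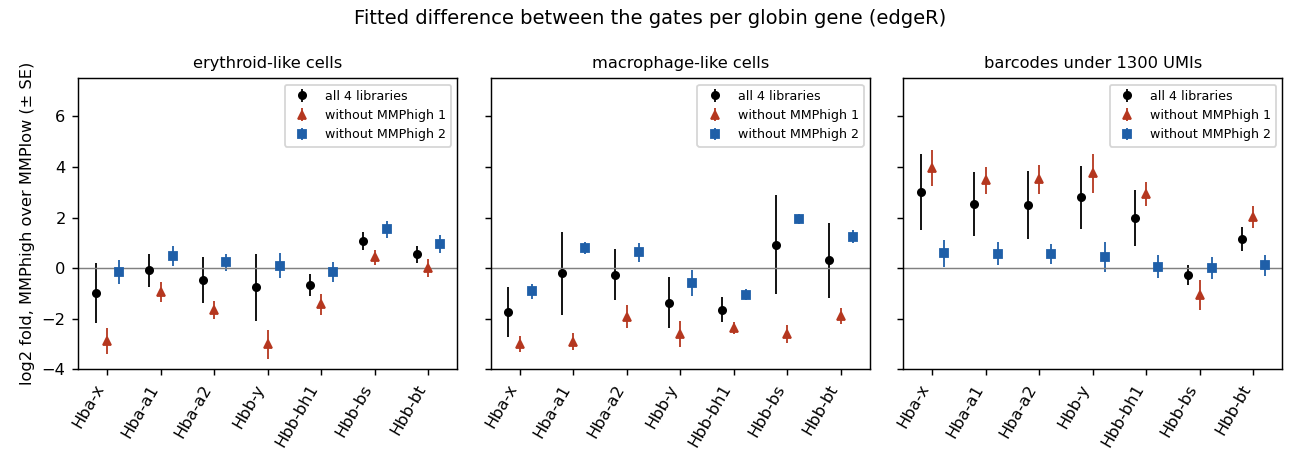
Fitted log2 fold of MMPhigh over MMPlow (± SE, edgeR) for each globin gene in erythroid-like cells, macrophage-like cells and barcodes under 1300 UMIs; black circles use all 4 libraries, and red triangles and blue squares leave out MMPhigh 1 or MMPhigh 2. The folds move with the library left out: in macrophage-like cells Hba-a1, Hbb-bs and Hbb-bt lie on opposite sides of 0, and in barcodes under 1300 UMIs the fold of Hba-x is 3.97 without MMPhigh 1 and 0.58 without MMPhigh 2.

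Single erythroid-like cells covered the whole range of the embryonic share, with many at either end. Among cells with at least 5 beta-like UMIs (131, 184, 153 and 237 cells), 46, 61, 74 and 105 had under 10% of them from Hbb-y and Hbb-bh1, and 31, 48, 26 and 15 had 90% or more. Between these ends lay 54, 75, 53 and 117 cells. Depth differed between libraries, as given above. Cells at 90% or more held 89.5%, 91.3%, 79.1% and 42.5% of the beta-like UMIs. Their median globin content was 1781, 682.5, 459.5 and 90 UMIs, against 19, 12, 22.5 and 36 UMIs for cells under 10%. Over the whole class, with UMIs pooled over cells, the leading embryonic beta gene differed between cells under 50% embryonic beta and the others. Hbb-bh1 supplied 77.8%, 88.9%, 82.6% and 93.9% of embryonic beta UMIs in cells with under 50% embryonic beta, and 15.8%, 19.6%, 14.6% and 33.5% in the others. In cluster 3 the difference was smaller in MMPlow 1 and nearly absent or of the other sign in the other libraries. There the shares were 53.8%, 88.9%, 98.4% and 90.2% in cells under 50% and 18.6%, 84.6%, 98.9% and 99.0% in the others, over 31, 51, 17 and 37 cells in all. With each cell thinned to 10000 UMIs, which left out shallower cells and kept 160, 385, 114 and 349, there were 54, 93, 39 and 98 cells with at least 5 beta-like UMIs. Of these, 27, 37, 18 and 48 lay under 10% and 3, 10, 3 and 8 at 90% or more.

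**Figure D3:**
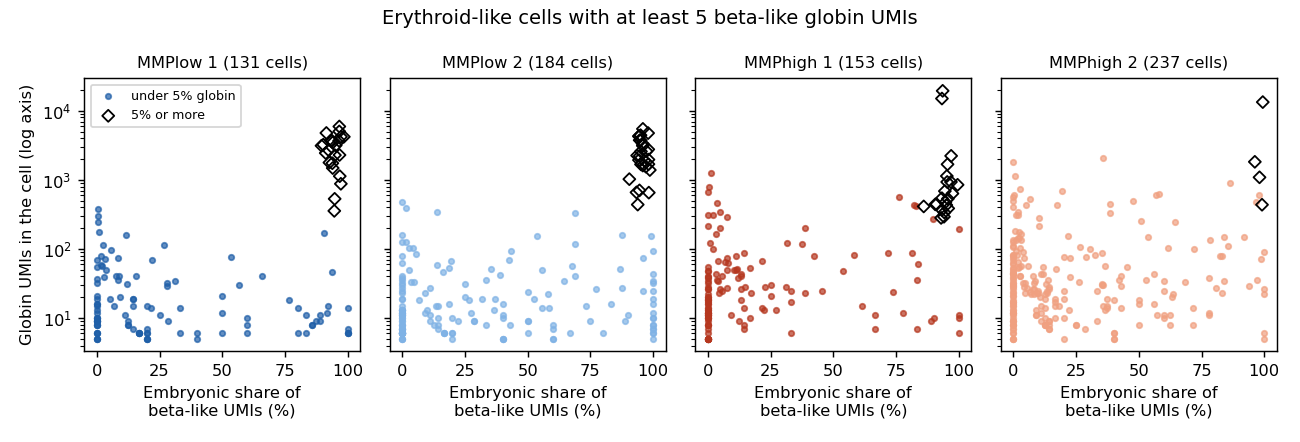
Each point is an erythroid-like cell with at least 5 beta-like globin UMIs; the x axis is the share of Hbb-y and Hbb-bh1 in its beta-like UMIs (%) and the y axis its globin UMIs (log axis), with 1 panel per library and black diamonds for globin-rich cells. The globin-rich cells stand at the right edge of each panel, apart from a few, and the cells at the left edge hold fewer globin UMIs.

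Macrophage-like cells numbered 1333, 1526, 1167 and 805 and held 236, 141, 167 and 25.8 CPM of globin in all. The class joins 5 clusters, and cluster 5, led by Gm2245, Gm20528, F13a1 and Mrc1, held 85.7% and 79.4% of it in MMPlow 1 and 2. In cluster 5 only 5 of 14 macrophage markers lay at a log2 fold of 1 or more over all other cells, against 14 in cluster 12. Cluster 12, led by the complement genes C1qa, C1qb and C1qc, held 92.5% of it in MMPhigh 2, and clusters 12, 30 and 32 held 28.1%, 27.5% and 30.5% of it in MMPhigh 1. No macrophage-like cell was globin-rich. The leading member was Hbb-y in both MMPlow libraries and in MMPhigh 2, and Hbb-bs in MMPhigh 1. In MMPhigh 1, cluster 32 held most of the class's globin UMIs. In that cluster only 4 of 14 macrophage markers lay at a log2 fold of 1 or more, and whether its cells are macrophages was not tested. Hbb-y lay at 80.4, 44.4, 33.4 and 8.13 CPM, Hba-x at 49.8, 29.0, 16.7 and 3.94 CPM and Hbb-bh1 at 35.8, 27.96, 12.4 and 5.01 CPM, each lower in both MMPhigh libraries. Each was also lower there in endothelial-like, mesenchymal-like, muscle-like, epithelial or mesonephric-like and granulocyte or mast-like cells. In mesenchymal-like cells Hbb-y averaged 150 CPM in MMPlow and 7.63 CPM in MMPhigh. In neural or neural crest-like cells each overlapped between fractions, and in megakaryocyte-like and germ cell-like cells Hbb-bh1 did. The adult genes did not separate the fractions: Hbb-bs lay at 14.5, 9.65, 37.4 and 1.59 CPM, Hbb-bt at 24.1, 12.8, 34.8 and 3.94 CPM and Hba-a1 at 22.7, 12.8, 24.4 and 1.89 CPM. Hba-a2 lay at 8.27, 3.99, 7.41 and 1.28 CPM.

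The total was set against the rate in endothelial-like cells, and whether it is background was not tested. Endothelial cells should lack globin, and the endothelial-like cells of MMPlow 1 and 2 held it at a rate that predicts 884 and 896 globin UMIs for the macrophage-like cells, where 1026 and 845 were found. After subtraction, 93.2 embryonic and 48.7 adult UMIs remained in MMPlow 1, and -93.97 and 42.9 in MMPlow 2. In MMPhigh 1 and 2 the same rate came from only 14 and 13 endothelial-like cells with 5 and 25 globin UMIs. It predicts 192 and 1555 UMIs for the macrophage-like cells, where 1460 and 504 were found. Embryonic and adult UMIs after subtraction were 433 and 835 in MMPhigh 1, and -910 and -141 in MMPhigh 2. With each cell thinned to 2000 UMIs, a globin UMI was found in 31.3%, 24.1%, 20.7% and 3.79% of macrophage-like cells. The shares were 27.2% and 23.4% in endothelial-like cells of MMPlow 1 and 2, and 9.63% and 6.49% in the 14 and 13 such cells of MMPhigh. In neural or neural crest-like cells that were not globin-rich they were 23.9%, 21.2%, 12.05% and 3.90%. Erythroid markers other than globin were also present. The 14 genes summed to 194, 152, 100.8 and 65.4 per 1000000 non-globin UMIs in macrophage-like cells, with 13, 14, 13 and 13 detected, and to 156, 135, 92.1 and 184 in endothelial-like cells, the latter 2 from 14 and 13 cells. Their part in the macrophage-like globin was not tested. Without thinning, the macrophage-like shares were 42.0%, 37.7%, 29.4% and 28.1%, at median depths of 2765, 3114.5, 3286 and 22419 UMIs. The endothelial-like shares were 41.3%, 38.7%, 35.7% and 15.4%, at median depths of 3168, 3635.5, 12901.5 and 20697 UMIs. The thinned macrophage-like share was above those of both other classes in MMPlow 1, MMPlow 2 and MMPhigh 1, and below both in MMPhigh 2. Over all other named classes outside the erythroid-like, without globin-rich barcodes and with at least 50 globin UMIs (7, 7, 3 and 5 classes), it ranged from 23.8% to 36.4%, 18.8% to 33.5%, 8.90% to 25.5% and 3.90% to 39.9%. The macrophage-like share lay inside this range in 3 libraries and below it in MMPhigh 2. These classes include megakaryocyte-like cells, whose Hbb-bh1 averaged 163 CPM in MMPlow (123 to 203) and 165 CPM in MMPhigh (48.9 to 282). In endothelial-like cells it averaged 23.9 and 3.18 CPM. Whether the range is one of background was not tested, and in MMPhigh 1 it rests on 3 classes. In MMPhigh 1, cluster 32 was at 37.5%, cluster 30 at 22.3% and cluster 12 at 4.62%.

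The embryonic to adult ratio of macrophage-like cells was 2.39 (95% exact interval 2.08 to 2.74), 2.58 (2.22 to 3.01), 0.601 (0.539 to 0.669) and 1.96 (1.63 to 2.38). MMPhigh 1 was thus lowest, but this depended on the clustering. At a finer clustering (resolution 2 in place of 1) the ratios were 2.47, 2.60, 2.16 and 1.73, and at a coarser one (resolution 0.5) 2.34, 3.05, 0.685 and 0.607. With globin genes among those clustered they were 2.67, 2.90, 4.67 and 2.09. With a mixed macrophage and erythroid cluster left unsplit they were 2.14, 4.48, 2.02 and 0.443. Over the other classes just described, the median ratio was 1.97, 3.50, 0.901 and 1.04, lower in both MMPhigh libraries. The 0.901 of MMPhigh 1 is the value of its megakaryocyte-like cells. The macrophage-like clusters of MMPhigh 1 did not share a ratio: cluster 12 had 4.81 over 424 globin UMIs, of which 1 cell held 50%, cluster 30 had 0.610 over 190, and cluster 32 had 0.145 over 797. The whole class held 1460 globin UMIs in MMPhigh 1. Cluster 32 was led by Rpgrip1, Fabp7 and Car1, the last a carbonic anhydrase that red cells also make, and 4 of 14 macrophage markers lay at a log2 fold of 1 or more over all other cells. In cluster 12 the ratio was 2.27, 2.32, 4.81 and 2.06. Between the fractions the log2 difference for the whole class was -1.19 (exact two-sided permutation p 0.33, 0.667 adjusted over 6 tests), with means of 1.31 ± 0.08 in MMPlow and 0.12 ± 1.21 in MMPhigh (SD, n = 2 each).

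By edgeR 0 of 7 genes were called in macrophage-like cells, where 30.5% of 13509 genes were, with 1 at an unadjusted p under 0.05 and 1 by DESeq2. The gene at the lowest p was Hbb-bh1, at -1.64 on the log2 scale (SE 0.50, edgeR adjusted p 0.0853). This turned on the MMPhigh library used. Without MMPhigh 1, 6 genes were called lower, where 19.4% of genes were, with Hbb-bs at -2.61 and Hba-a1 at -2.90. Without MMPhigh 2, 5 were called, 3 higher and 2 lower, where 35.5% of genes were called, with Hbb-bs at 1.95, Hbb-bt at 1.25 and Hba-a1 at 0.79. The median over the 7 was -0.26, against 0.00 over all genes tested, and 1.38 with the mixed cluster left unsplit, where edgeR called 0 (0 also at an unadjusted p under 0.05) and 18.7% of all genes.

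Barcodes with under 1300 UMIs numbered 31410, 847, 6621 and 430 and held 543, 1882, 1417 and 9523 CPM of globin. The gap between libraries went with the globin-rich barcodes among them, which numbered 15, 13, 32 and 15 and held 8.17%, 73.8%, 64.5% and 98.2% of these globin UMIs. Hbb-y led in each library, at 186, 801, 593 and 4505 CPM, followed by Hba-x at 98.2, 458, 363 and 2931 CPM. Hbb-bh1 lay at 80.3, 178, 120 and 673 CPM, so MMPhigh 2 was highest for each embryonic gene while MMPhigh 1 lay between the MMPlow libraries. The adult alpha gene Hba-a1 lay at 51.9, 169, 141 and 820 CPM and Hba-a2 at 22.8, 82.3, 63.1 and 379 CPM, in the same order. Hbb-bs, at 48.5, 114, 71.8 and 26.3 CPM, was instead lowest in MMPhigh 2, and Hbb-bt lay at 55.1, 78.9, 66.3 and 189 CPM. Without globin-rich barcodes the summed level was 499, 502, 506 and 173 CPM for all 7 genes, and Hbb-y lay at 164, 202, 145 and 65.0 CPM. Erythroid markers were higher in the globin-rich barcodes among them. The 14 genes summed to 1101, 929, 4197 and 6851 per 1000000 non-globin UMIs in the globin-rich barcodes under 1300 UMIs, with 9, 6, 14 and 11 detected, and to 286, 268, 164 and 162 in the others. In MMPlow other lists were higher than the erythroid list in these globin-rich barcodes, with the megakaryocyte list at 1879 and 1715 and the endothelial list at 1296 and 1286. Lowest depths differed, since the smallest barcode held 962 UMIs in MMPlow 1 and 500 in each of the others.

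The embryonic to adult ratio of these barcodes was 2.04 (95% exact interval 1.98 to 2.11), 3.23 (2.88 to 3.63), 3.14 (2.99 to 3.31) and 5.73 (5.23 to 6.30). The log2 difference between fractions was 0.72 (exact two-sided permutation p 0.667, 0.8 adjusted over 6 tests). Without globin-rich barcodes the ratio was 1.92, 4.08, 1.43 and 3.0. By edgeR 0 of 7 genes were called between the fractions, where 12.3% of 12534 genes were, with 1 at an unadjusted p under 0.05 (Hbb-bt, log2 fold 1.15, SE 0.49, adjusted p 0.180) and 0 by DESeq2. Folds were as large as 3.004 for Hba-x (SE 1.51, adjusted p 0.421) and 2.80 for Hbb-y (SE 1.26, adjusted p 0.310), and the median over the 7 was 2.50 against -0.02 over all genes. Without globin-rich barcodes the 7 folds lay between -0.62 and 0.51, a description with no test. Calls depended on which library of either fraction was left out. The median log2 fold over the 7 was 1.82 without MMPlow 1, 3.32 without MMPlow 2, 3.48 without MMPhigh 1 and 0.45 without MMPhigh 2. Without MMPhigh 1, 6 were called higher, where 3.41% of genes were, and without MMPhigh 2, 0 were called, where 13.1% of genes were.

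Set against the retained cells of the same libraries, the low barcodes differed in adult beta globin with no common direction in CPM. Hbb-bs lay at 37.1, 34.9, 109.2 and 53.5 CPM in retained cells, so low barcodes were higher in both MMPlow libraries and lower in both MMPhigh libraries. Hbb-bt lay at 64.4, 50.7, 117.5 and 69.5 CPM, so low barcodes were higher in MMPlow 2 and MMPhigh 2 and lower in the other two. In the edgeR fit with library as a block, which scales libraries by TMM (trimmed mean of M-values) factors, Hbb-bs was called at 0.56 on the log2 scale (SE 0.19, adjusted p 0.0288) and Hbb-bt at 0.52 (SE 0.19, adjusted p 0.0437), where 16.7% of 19353 genes were called. DESeq2 called 0 of the 7.

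Within libraries, the 3 groups of barcodes did not keep a fixed order of ratios. Macrophage-like against erythroid-like cells differed on the log2 scale by -0.71, -0.88, -2.09 and 1.0097, a mean of -0.67 (exact sign-flip permutation p 0.5, 0.75 adjusted). Low barcodes against erythroid-like cells differed by -0.93, -0.55, 0.30 and 2.55, a mean of 0.34 (exact permutation p 0.875, also 0.875 adjusted). Low barcodes against macrophage-like cells differed by -0.22, 0.33, 2.39 and 1.55, a mean of 1.009 (exact permutation p 0.25, 0.667 adjusted). With 4 libraries the smallest p of this test is 0.13. No macrophage-like cell was globin-rich, so leaving out globin-rich barcodes left the macrophage-like ratio as it was and put the erythroid-like ratio below it in each library, and this comparison was not tested.

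**Figure D4:**
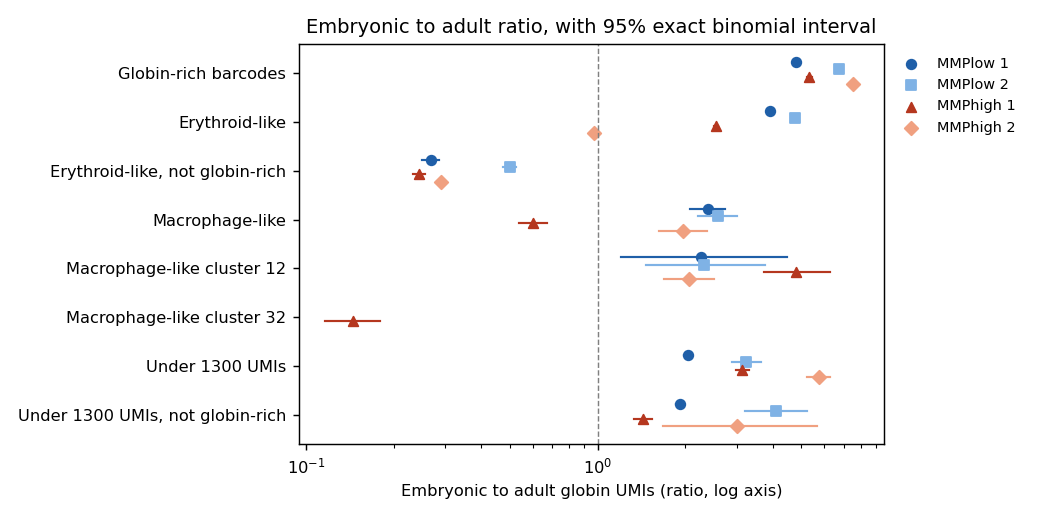
Ratio of embryonic to adult globin UMIs (log axis) with 95% exact counting intervals, for groups of barcodes with at least 20 globin UMIs; symbols and colours are the 4 libraries and the dashed line marks equal amounts. Of the groups shown, the globin-rich barcodes lie furthest to the right within each library, between 4.78 and 7.55. Erythroid-like cells without them lie between 0.244 and 0.4999. The macrophage-like cells of MMPhigh 1 lie left of those of the other libraries at the clustering used. This was not so at resolution 2 or 0.5, with globin genes clustered or with the mixed cluster unsplit.

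Across all retained cells, the level of globin followed the class in order but with wide ranges. Erythroid-like cells came first at 7395 ± 4004 CPM (SD, n = 4), with 1951 to 11569. Cells left unnamed came next at 684 ± 686 CPM, then megakaryocyte-like cells at 375 ± 166 CPM and neural or neural crest-like cells at 367 ± 354 CPM. Granulocyte or mast-like cells lay at 281 ± 392 CPM, mesenchymal-like at 193 ± 241 CPM, macrophage-like at 142 ± 87.3 CPM and endothelial-like at 113 ± 79.2 CPM. Germ cell-like cells lay at 110 ± 38.1 CPM, epithelial or mesonephric-like at 77.4 ± 78.2 CPM and muscle-like at 72.3 ± 49.6 CPM. Single cells carried some of these sums. In MMPhigh 2, 1 globin-rich cell was among the 1083 neural or neural crest-like cells, whose globin UMIs numbered 16619 with it and 689 without it, and in MMPlow 2 the granulocyte or mast-like cells held 3266 with globin-rich cells and 617 without them. Some MMPhigh sums hold few cells, with 9 granulocyte or mast-like cells in MMPhigh 1. Below the erythroid-like class, the ranges of neighbours in this order overlapped over the 4 libraries. These SDs join both fractions, and in several classes the fractions lay apart. Unnamed cells averaged 1277 CPM in MMPlow and 90.9 CPM in MMPhigh, and mesenchymal-like cells 362 and 23.8 CPM. Megakaryocyte-like cells averaged 393 and 358 CPM. Within MMPlow, unnamed cells, at 1239 to 1314 CPM, lay above megakaryocyte-like cells, at 391 to 394 CPM. In the sum of all retained cells the 7 genes lay at 1407, 1201, 1536 and 578 CPM, and edgeR called 0 of 7, where 53.7% of 20517 genes were, with 1 at an unadjusted p under 0.05 and 2 by DESeq2. These sums also differ in class make-up, including the share of erythroid-like cells.

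**Figure D5:**
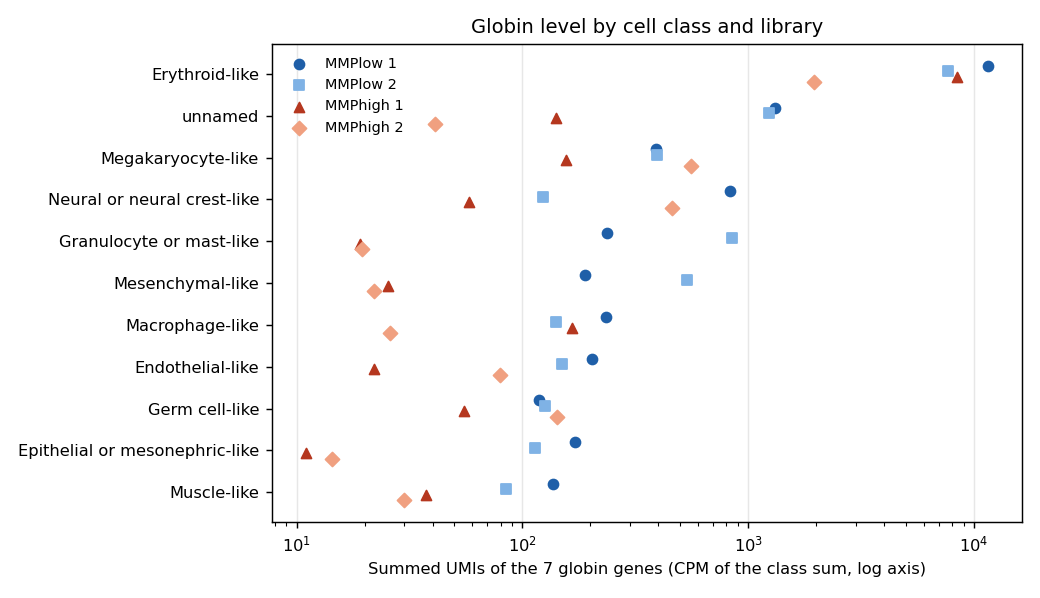
Summed level of the 7 globin genes in each class (CPM of the class sum, log axis), with 1 symbol per library. Erythroid-like cells lie at 1951 to 11569 CPM, to the right of every named class of the same library, and the ranges of the other classes overlap.

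Regulators of the globin genes were listed by name, 23 genes of which 20 were tested. In erythroid-like cells 4 of the 20 were higher in MMPhigh and 0 lower, where 14.1% of all genes were higher, so this count is near the background. The folds come from TMM-scaled sums, and for these 4 genes they were larger than the CPM alone show. Klf1, the activator of the adult beta genes, lay at 87.2, 117, 169 and 188 CPM (log2 fold 1.11, SE 0.19, edgeR adjusted p 0.00142). As given above, cluster 3 held most of this class in MMPlow, and clusters 29 and 25, both with Klf1 among their leading genes, held most of it in MMPhigh 1 and 2. The part of this make-up in the Klf1 fold was not tested. Zfpm1, the partner of Gata1, rose by 0.67, at 113.8, 90.2, 124 and 135 CPM. Sox6, a repressor of embryonic beta genes, was called at 0.69, and Zbtb7a, a repressor of fetal globin in humans, at 0.46. Their CPM overlapped between fractions, at 22.3, 15.6, 19.7 and 27.98 for Sox6 and 65.7, 54.8, 64.0 and 68.6 for Zbtb7a. Bcl11a, which silences embryonic globin genes, lay at 567, 469, 353 and 434 CPM and was not called. In macrophage-like cells 0 were higher and 8 lower, where 13.8% of genes were lower. They included Gata1, the master factor of red cells, at 14.7, 12.3, 3.99 and 2.20 CPM (log2 fold -1.89, SE 0.33, edgeR adjusted p 0.00262), Nfe2 at -1.73 and Myb at -1.38. In endothelial-like cells of MMPlow 1 and 2 Gata1 lay at 13.7 and 9.08 per 1000000 non-globin UMIs, and as given above different clusters held most of the macrophage-like class in MMPlow and MMPhigh. The part of either in the Gata1 fold was not tested. In low barcodes 0 were higher and 6 lower, where 4.52% of genes were lower, among them Klf1 at -1.44 and Gata1 at -1.48. Markers of other cell types moved with this difference. In the low barcodes that were not globin-rich the endothelial list summed to 1717, 1856, 103.3 and 160 per 1000000 non-globin UMIs, the neural list to 149, 324, 1745 and 1432 and the megakaryocyte list to 1352, 1213, 704 and 298, and their part in it was not tested. The low barcodes against retained cells gave 1 higher, Nfe2 at 0.81, and 4 lower, Bcl11a, Ikzf1, Lin28b and Nr2c2, where 16.7% of genes were called. In the sum of all retained cells 4 were higher and 6 lower, where 53.7% of genes were called, so this count is near the background.

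The genes most like the members were sought over 36 sums of a class in a library, by Pearson's r of log2(CPM + 10). The points share libraries and depth, and the erythroid-like sums stand apart from the rest, so r is a description. For summed embryonic globin, genes among the highest were Gm15915 at 0.863, Abcb4 at 0.833, Tarsl2 at 0.826 and Cpox, an enzyme of haem synthesis, at 0.801. For summed adult globin they included Abcb4 at 0.903, Gm15915 at 0.901, Cpox at 0.891 and Steap3, a ferrireductase of iron uptake, at 0.887.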

How the data were processed

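The authors deposited 1 matrix per library of raw UMI counts per gene and barcode, with no normalization. The matrices came from Cell Ranger 7.0.1 per the file headers, whereas the submitters' processing notes name Cell Ranger 2.1.1 and the build mm10. The annotation is not given in the sources used here, and coordinates come from GENCODE vM21 by gene identifier. All columns belonged to the 4 samples, with 0 columns of other samples.

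Barcodes were retained with at least 2000 UMIs, at least 1000 genes and under 25% mitochondrial UMIs. Scrublet, run in scanpy 1.11.5, marked 2, 996, 0 and 68 barcodes as doublets, which were removed, so in MMPlow 1 and MMPhigh 1 doublet calling is taken to have failed. Retained cells were scaled to 10000 UMIs, log-transformed and clustered without globin genes (2000 variable genes, 30 components, 15 neighbours, Leiden resolution 1). A mixed macrophage and erythroid cluster was split again, which gave 34 clusters. Each was named "-like" from lists of markers that hold no globin gene, with naming thresholds set after clusters had been seen. The members, marker lists and regulators were chosen with earlier results of these data known.

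Cells are not replicates, so counts were summed per library and group of barcodes. The test over all genes was that of edgeR 4.0.16 in R 4.3.3 (TMM, filterByExpr, robust quasi-likelihood F-test, two-sided, Benjamini-Hochberg, threshold 0.05), and DESeq2 1.42.0 was an alternative. The SE given with an edgeR fold was derived as the absolute log2 fold divided by the square root of the F statistic. CPM are summed UMIs per 1000000 UMIs of the sum. Ratios were tested over libraries by exact permutation in scipy 1.17.1, and their intervals are Clopper-Pearson at 95%. The scripts were tested on simulated data. Named genes were the 7 members, the listed regulators that were called or highest, and the 5 genes with the highest correlation to embryonic or adult globin among those with at least 50 CPM in 1 sum, of which 1 is not reported here. Alternatives covered normalization, tool, filters, doublets, clustering, the UMI limit, the ratio's genes, weighting, the replicate block and each library left out.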

Additional observations from a re-analysis of the deposited data

Results flagged for a closer look

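Barcodes with at least 1300 and under 2000 UMIs belong to neither the retained cells nor the low barcodes, so no test above used them, although the globin-rich ones among them are part of the globin-rich barcodes described above. Their summed globin lay above the level that 3 counts give, which a sum over many barcodes passes easily. The 7 genes lay at 656, 2078, 1526 and 4839 CPM in MMPlow 1, MMPlow 2, MMPhigh 1 and MMPhigh 2, above floors of 0.165, 0.544, 0.659 and 9.38 CPM for 3 counts. The barcodes numbered 11811, 3280, 2844 and 198 and held 11914, 11454, 6950 and 1548 globin UMIs in all. Their embryonic to adult ratios were 1.88, 4.70, 2.83 and 6.04, and 20, 43, 17 and 2 of them were globin-rich. These are values of 1 sum per library with no test between the fractions.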

How the results depend on the processing

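Counts of called globin genes turned on single libraries, and folds moved with the globin-rich barcodes. The cause was not tested. All counts are of 7 genes except where stated, with the share of all genes called in the same fit in brackets. The limit for globin-rich barcodes uses the values tested, so fits without those barcodes are given as values and test nothing. In all retained cells, 0 were called (53.7%), and DESeq2 gave 2 (46.6%), no filter on low counts 1 (42.9%) and the replicate block 2 (54.1%). Without globin-rich barcodes the log2 fold of Hba-a2 turned to 0.88 (0.87 with RLE size factors, 0.87 with DESeq2, 0.90 with the block). Over libraries left out, with or without these barcodes, it ranged from -0.98 to 1.12, and Hbb-bh1 ranged from -0.84 to 0.49.

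In erythroid-like cells, 0 were called (27.7%), no filter gave 1 (17.5%) and the block 5 (33.2%). Hbb-y aside, the log2 folds that lay below 0 with globin-rich barcodes were those of Hba-x, Hba-a1, Hba-a2 and Hbb-bh1. Without these barcodes they were 1.02, 1.45, 1.31 and 1.02, which tests nothing. They were 1.03, 1.46, 1.33 and 1.03 with RLE, 1.04, 1.46, 1.33 and 1.03 with DESeq2, and 1.05, 1.47, 1.34 and 1.07 with the replicate block. Hbb-bh1 lay at 0.91 in cluster 25. With libraries left out the ranges were -2.88 to 1.44, -0.95 to 1.77, -1.66 to 1.64 and -1.43 to 1.502.

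In macrophage-like cells, 0 were called (30.5%). The count was 1 with DESeq2 (21.3%), no low-count filter (21.0%), the stricter cell filter (24.4%), no doublet removal (32.5%), resolution 0.5 (41.9%) or the best-marked cluster (7.52%, of 6 tested), 2 with the block (36.8%) or resolution 2 (21.8%), and 4 with globin genes clustered (35.5%). Libraries left out gave 0 to 6 (13.2% to 40.0%), with Hba-a1 at -2.90 to 0.79, Hbb-bs at -2.61 to 1.95 and Hbb-bt at -1.90 to 1.25. Hbb-bt was -1.20 at resolution 2, and with globin genes clustered Hbb-bs was -2.77 and Hbb-bt -1.87. In barcodes under 1300 UMIs, 0 were called (12.3%), against 5 with no low-count filter (8.55%) or with the block (16.8%), 2 with a limit of 1000 UMIs (7.63%) and 0 to 6 with libraries left out (4.79% to 13.1%). Against retained cells 2 were called (16.7%). The count was 0 with RLE, DESeq2, a filter of 10 CPM, no filter, no replicate block, under 1000 UMIs and the looser or stricter cell filter (20.1% at most, and 0% with no block). It was 1 with 1000 to under 1300 UMIs (18.7%), with no gene minimum (16.7%) or with the top 6% of doublet scores removed (15.9%). It was 0 to 2 with libraries left out (5.59% to 19.2%). Without globin-rich barcodes the log2 fold of Hbb-bs was -0.10.

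The ratio difference between fractions in macrophage-like cells turned to 0.17 with globin genes clustered and 0.46 in the best-marked cluster. It turned to 0.53 in erythroid-like cells of cluster 25 without globin-rich barcodes, and in low barcodes to -0.43 without globin-rich barcodes and -0.42 as a mean over barcodes. Macrophage-like against erythroid-like cells turned to 0.19 with globin genes clustered, 1.68 as a mean over barcodes, 2.40 without globin-rich barcodes and 2.93 against cluster 25 without them. Low barcodes against erythroid-like cells ranged from -0.39 to 0.77 with libraries left out. Of 107 alternative ratio values 97 kept the sign. The counts that follow include fits without globin-rich barcodes, which test nothing. Of 726 alternative values of single genes, 26 lost a call, 122 gained one in the same direction, 49 were called with the other sign and 60 changed sign while uncalled both times.

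The replicate numbers of the titles give 2 pairs, and deviations from the fraction means correlated at 0.12. With 2 libraries per fraction these deviations mirror each other, so both pairs must give the same value and it counts as 1 check. The labels do not say that a number marks a shared litter or day. Whether libraries of equal number share a source is therefore not known, and the block counts above are given for that reason only. Median depth over all barcodes was lowest in MMPlow 1 and MMPhigh 1, at 1274 and 1362 UMIs, and over retained cells in MMPlow 1, at 3145 UMIs.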

Other observations

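Other members of the globin fold were counted in all barcodes. Hbb-bh2, a further gene of the beta cluster, had 6, 3, 1 and 12 UMIs in MMPlow 1, MMPlow 2, MMPhigh 1 and MMPhigh 2. Hbq1b (theta) had 27, 19, 21 and 38 UMIs, of which 11, 12, 14 and 25 were in erythroid-like cells, and its copy Hbq1a had 0, 0, 0 and 1. Both are near-copies, so their split is uncertain. The globins of other tissues lay mostly outside the erythroid-like class. Mb, myoglobin of muscle, had 28, 24, 13 and 60 UMIs, with 0, 1, 1 and 1 in erythroid-like cells and 36 of its 108 retained UMIs in muscle-like cells. Cygb, cytoglobin of fibroblast-type cells, had 52, 53, 73 and 186 UMIs, with 104 of 303 retained UMIs in mesenchymal-like, 100 in neural or neural crest-like and 57 in muscle-like cells. In CPM it was highest in muscle-like cells, at 3.31, 4.08, 9.05 and 9.74, against 1.83, 1.84, 3.46 and 5.08 in mesenchymal-like cells. Ngb, neuroglobin, had 12, 15, 1 and 14 UMIs, with 11 of 36 retained UMIs in neural or neural crest-like cells. Hbb-bh0 was not analysed here. These counts are too low for a comparison between fractions.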
